A study of Mus musculus with 30 samples.

Results

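The genes described here are the 10 that encode the pore-forming subunits of the AMPA-type glutamate receptor and its best-known auxiliary proteins. They were chosen by name, by a rule that uses no measured value, though with earlier results of these data known. They are the subunits Gria1, Gria2, Gria3 and Gria4, the transmembrane AMPA receptor regulatory proteins (TARPs) Cacng2, Cacng3, Cacng4 and Cacng8, and the cornichons Cnih2 and Cnih3. All 10 were found among the 19737 genes of a single whole-brain RNA-seq table. The 30 libraries came from male C57BL/6N mice, 5 for each of 6 groups. Wild-type (WT) mice were compared with heterozygous (HT, Arid1b+/-) mice, which carry a germline CRISPR-made deletion at exon 5 of Arid1b with TT inserted, described as protein-truncating. Arid1b is a subunit gene of the BAF chromatin remodelling complex. At postnatal day 10 (P10), P10-WT and P10-HT brains were untreated. At P120, brains came from mice whose dams drank 0.2% saccharin water from P3 to P21, so that the pups received it through milk. For P120-WT-Veh and P120-HT-Veh the water held saccharin alone, and for P120-WT-Flx and P120-HT-Flx it also held 0.1 mg/ml fluoxetine, a selective serotonin reuptake inhibitor. All P120 mice drank plain water after weaning, so their brains were taken long after the last exposure.

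AMPA receptors carry most of the fast excitatory current in the brain. Each is a tetramer of the proteins GluA1 to GluA4, which Gria1 to Gria4 encode, and its subunit makeup sets its calcium permeability and its traffic to the synapse. In GluA2, an adenosine in the codon of the pore residue known as the Q/R site is edited by an RNA deaminase, and receptors that hold edited GluA2 pass little calcium. TARPs (Cacng2, whose product is stargazin, and its relatives Cacng3, Cacng4 and Cacng8) bind the receptor, slow its closing and tie it to scaffold proteins of the postsynaptic density through the end of their tail. Cornichons (Cnih2 and Cnih3) help the receptor leave the endoplasmic reticulum and also slow its deactivation. Cacng2 is known for its role in cerebellar granule cells, Cacng8 for the hippocampus, and Cacng4 for the young brain and for glia.

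The 4 subunits differ little where the pore is lined. The stretch around the Q/R codon is printed below for each, since this codon separates GluA2 receptors from the others after editing. It comes from GENCODE transcripts on GRCm38, runs 5′ to 3′ on the sense strand, and shows the Q/R codon in capitals. The codon lies in a coding exon of each gene: at chr11:57243094-57243096 (+ strand) in exon 11 of Gria1, chr3:80706911-80706913 (- strand) in exon 11 of Gria2, chrX:41610265-41610267 (+ strand) in exon 11 of Gria3 and chr9:4464137-4464139 (- strand) in exon 12 of Gria4.
Gria1: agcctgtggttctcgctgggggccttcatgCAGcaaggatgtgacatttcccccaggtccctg
Gria2: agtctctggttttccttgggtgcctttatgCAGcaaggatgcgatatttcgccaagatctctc
Gria3: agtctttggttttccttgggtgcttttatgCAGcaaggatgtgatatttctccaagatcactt
Gria4: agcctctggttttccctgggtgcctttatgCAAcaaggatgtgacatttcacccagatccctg

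The genome reads CAG at this codon in Gria1, Gria2 and Gria3 and CAA in Gria4. Over the 63 bases, Gria2 and Gria3 were most alike, with 57 identical bases (90.5%), and Gria1 shared 49 (77.8%) with either of them. The edited base itself was not measured here, because the table holds 1 value per gene. The last 36 coding bases of the 4 TARPs are printed next, with the codons of the PDZ-binding ending, which holds the receptor complex at the scaffold, in capitals and the stop codon left out. The capitals lie at chr15:77995152-77995163 (- strand, exon 4) in Cacng2, chr7:122768832-122768843 (+ strand, exon 4) in Cacng3, chr11:107734783-107734794 (- strand, exon 4) in Cacng4 and chr7:3415591-3415602 (+ strand, exon 6) in Cacng8.
Cacng2: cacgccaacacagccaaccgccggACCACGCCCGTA
Cacng3: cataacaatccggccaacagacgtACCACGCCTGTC
Cacng4: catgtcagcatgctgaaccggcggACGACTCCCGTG
Cacng8: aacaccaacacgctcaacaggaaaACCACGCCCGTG

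Between pairs of TARPs, 55.6% to 69.4% of these 36 bases were identical. Outside these stretches the genes differ widely in base composition. Gria2 (ENSMUSG00000033981, chr3:80681450-80802835, - strand) has a longest transcript of 10371 bases with 36.8% GC, of which 74.5% is noncoding, while the median gene of the table has 2863 bases and 49.7% GC. Gria3 (ENSMUSG00000001986, chrX:41400854-41678601, + strand) has 43.0% GC and Gria4 (ENSMUSG00000025892, chr9:4417896-4796234, - strand) 44.3%. Gria1 (ENSMUSG00000020524, chr11:57011387-57330244, + strand) lies at 48.5% GC. The auxiliary genes are richer: 51.2% GC in Cacng2 (ENSMUSG00000019146, chr15:77991748-78120028, - strand), 54.6% in Cacng3 (ENSMUSG00000066189, chr7:122670492-122769393, + strand) and 54.4% in Cacng4 (ENSMUSG00000020723, chr11:107732357-107794557, - strand). Cnih3 (ENSMUSG00000026514, chr1:181352628-181460641, + strand) has 53.3% GC, Cnih2 (ENSMUSG00000024873, chr19:5092868-5098521, - strand) 62.3% and Cacng8 (ENSMUSG00000053395, chr7:3390683-3415648, + strand) 65.1%.

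Values are normalised read counts, whose sum ran from 31578614 to 41801037 per library. Read depth cannot be recovered from them, so no counting interval is given. Arid1b checked the genotype labels: it lay between 2162 and 2334 in P10-HT against 3164 to 3309 in P10-WT. At P120 the library labelled P120-HT-Veh 2 (3361) and the library labelled P120-WT-Veh 2 (2320) went against their labels, and the 4 other libraries of each group were in order. Both stayed in the age and fluoxetine comparisons, where values without them are given. Libraries also differed in a way that followed base composition. A GC index was taken as the mean log2 deviation of the genes richest in GC (58.2% or more, 1861 genes) minus that of the poorest (up to 41.4%, 1823 genes), with the 10 members left out. It lay between -0.88 and -0.44 in all P10 libraries and between -0.55 and -0.35 in P120-WT-Flx, but between 0.82 and 1.6 in P120-HT-Flx, from -0.51 to 1.11 in P120-HT-Veh and from -0.26 to 0.73 in P120-WT-Veh. A second split was seen in 10 markers of cerebellar neurons (Gabra6, Pcp2, Cbln3 and others), none of which was at 0 in any library. Their summed level was 8521 to 20458 in 4 P120 libraries (P120-WT-Flx 2 and 5, P120-WT-Veh 1 and 2) and 33517 to 74150 in the 16 other P120 libraries. Markers of glutamatergic and GABAergic neurons, which define the labelled tissue, were detected in all groups.

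**Figure D1:**
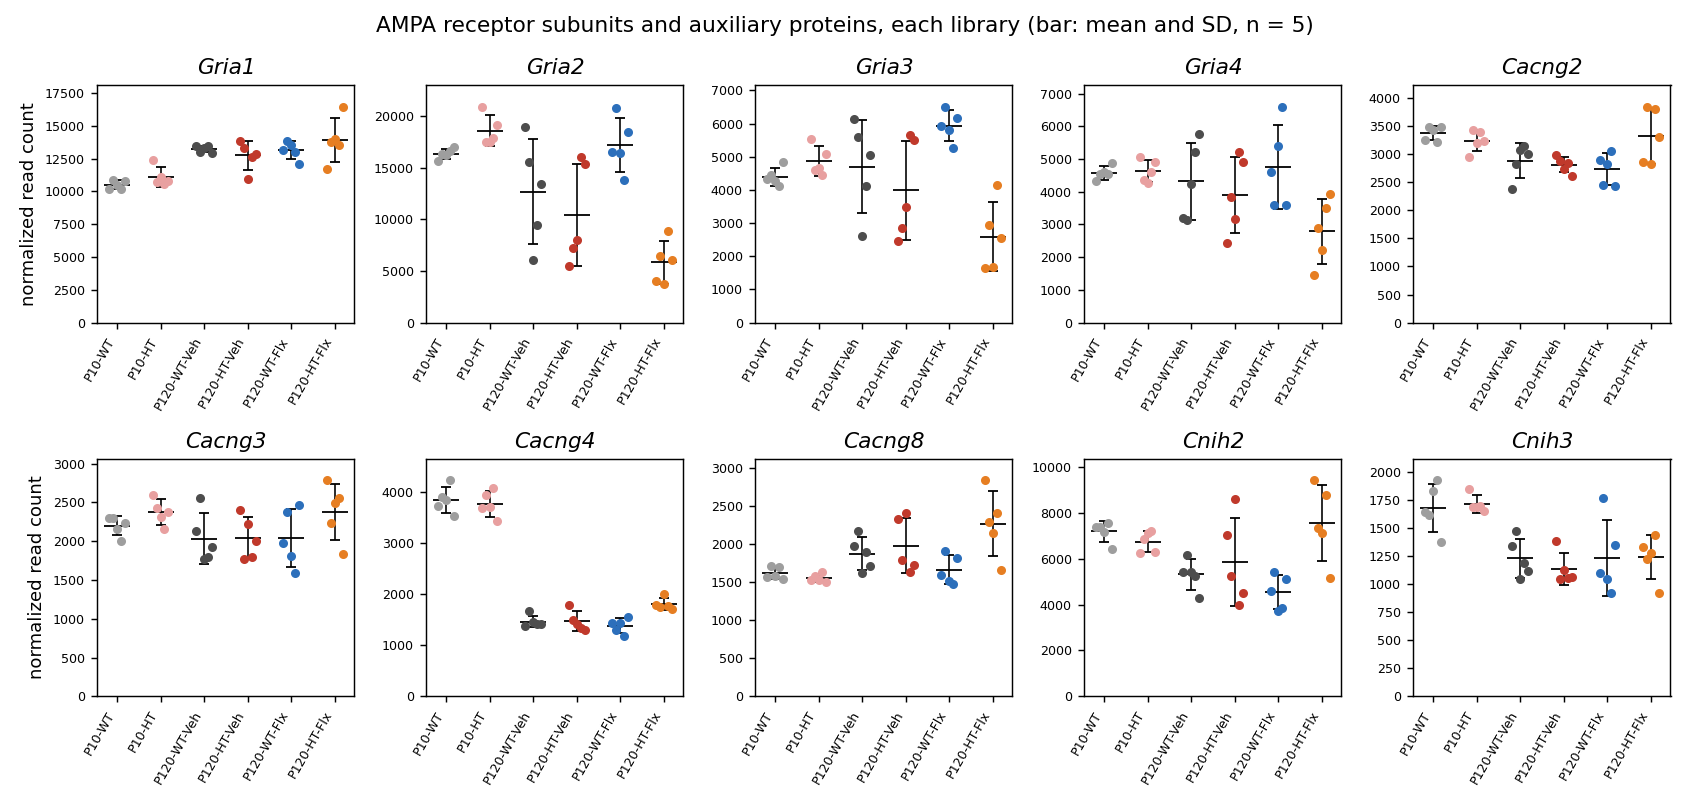
Normalised read count of each of the 10 genes in each of the 30 libraries, with the mean and SD of each group (n = 5); each panel has its own linear axis from 0. Cacng4 is at 3434 or above in every P10 library and at most 2002 in every P120 library, while Gria2 runs from 3758 to 20797 at P120.

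Levels of different genes were compared per kilobase of the longest transcript. In P10-WT, Cnih2 was highest at 5356 ± 334 per kb (SD, n = 5), Gria1 followed at 1896 ± 59.8, Gria2 at 1578 ± 46.3 and Cacng4 at 1097 ± 74.2. The libraries of these 4 genes did not overlap between neighbours in that order. The remaining 6 genes lay between 613 ± 22.8 (Cacng2) and 853 (Cacng8) per kb, and neighbours among them overlapped. Cnih2 and Gria1 kept the first and second place in all 6 groups, also with the merged exon length of each gene in place of the longest transcript. The place of Gria2 rests on that choice, since with merged exons it fell behind Cacng4 in P10-WT.

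In P120-WT-Veh the order of means below Cnih2 (3956 ± 498 per kb) and Gria1 (2387 ± 47.7) was Gria2 (1223 ± 487), Cacng8 (986 ± 114) and Gria3 (906 ± 268), and Cacng4 stood last at 417 ± 32.9. The libraries of Gria2 and Cacng8 overlapped, as did those of Cacng8 and Gria3 and those of Cnih3 and Cacng4. With merged exons Gria3 fell to place 8. Gria2 stood behind Cnih2 and Gria1 in P120-WT-Flx too (1659 per kb) but its mean was also below Cacng8, Cacng3 and Cacng2 in P120-HT-Flx (561 ± 200). Its libraries there overlapped those of Cacng3 (856 ± 131) and Cacng2 (605 ± 89.9). As a share of the summed per-kb level of the 4 subunits, Gria2 held 30.6% ± 0.600 in P10-WT, 32.1% ± 0.459 in P10-HT, 22.4% ± 6.73 in P120-WT-Veh, 20.1% ± 5.77 in P120-HT-Veh, 27.4% ± 3.59 in P120-WT-Flx and 13.5% ± 3.04 in P120-HT-Flx. Gria1 held the larger share throughout, from 35.9% ± 1.07 in P10-HT to 62.3% ± 7.45 in P120-HT-Flx. Among the 4 TARPs, Cacng4 held 32.7% ± 1.68 in P10-WT and 32.2% ± 1.31 in P10-HT but only 15.5% to 16.4% on average in the 4 P120 groups. The share of Cacng8 was 25.4% ± 0.668 in P10-WT and 37.0% ± 1.97 in P120-WT-Veh, and since shares add up to the whole, the fall of Cacng4 raises it as well. Cnih2 made up 88.0% to 92.3% of the cornichon level in every group, with Cnih3 the rest.

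**Figure D2:**
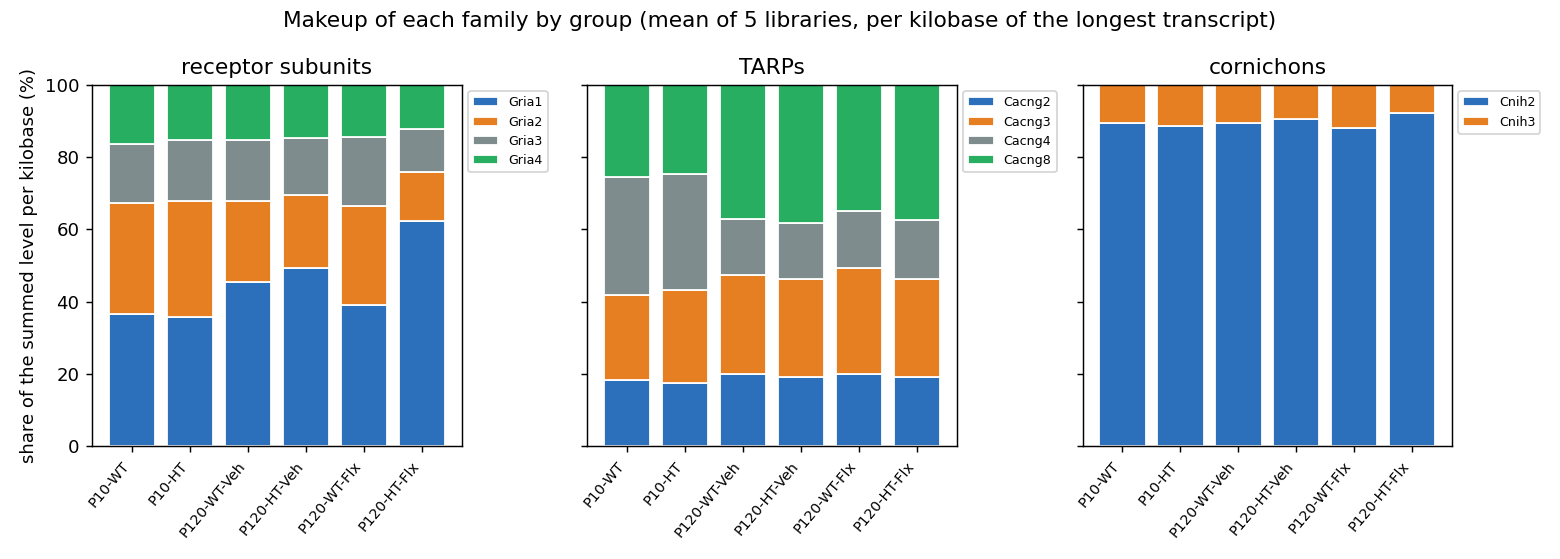
Mean share (%) of each gene in the summed per-kb level of its family, for the 4 subunits, the 4 TARPs and the 2 cornichons in the 6 groups; bars start at 0. Cacng4 falls from a 32.7% share in P10-WT to 15.7% in P120-WT-Veh, and the Gria2 share is lowest in P120-HT-Flx at 13.5%.

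The first comparison asks how the genes change from P10 to P120. P10 mice were untreated and P120 mice had received the vehicle, so that age and vehicle cannot be told apart. Since whole brain was used, fewer cells of a type and less RNA per cell cannot be told apart either. In WT, 6 of the 10 genes passed the test, 2 higher (Gria1 and Cacng8) and 4 lower (Cacng2, Cacng4, Cnih2 and Cnih3). Of all 17927 genes tested by limma, 58.3% passed, 28.9% higher and 29.4% lower at P120. A count of 6 of 10 is thus near the share of the whole table, and the sizes below carry the description. The median log2 change was -0.18 over the 10 genes and -0.013 over all genes.

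Among the subunits, Gria1, which encodes the subunit recruited to synapses in long-term potentiation, read 10199, 10904, 10507, 10173 and 10783 in P10-WT and 13503, 13023, 13310, 13446 and 12898 in P120-WT-Veh. The groups did not overlap, and the increase was 0.33 ± 0.050 (log2, SE; limma adjusted p = 8.76e-05). Gria2 read 15695, 16334, 16201, 16601 and 16990 in P10-WT and 18962, 15562, 6086, 9446 and 13381 in P120-WT-Veh. Its P120-WT-Veh libraries thus spread from below to above all P10-WT libraries, with a coefficient of variation of 39.8% against 2.93% in P10-WT. The difference of -0.47 ± 0.23 did not pass (limma adjusted p = 0.0979). Gria3 (0.039) and Gria4 (-0.13) did not pass either (limma adjusted p = 0.867 and 0.487). For both, all 5 P10-WT libraries lay inside the range of P120-WT-Veh.

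Among the TARPs, Cacng4 moved furthest of the 10 genes. It read 3712, 3901, 3836, 4223 and 3519 in P10-WT and 1373, 1661, 1445, 1410 and 1413 in P120-WT-Veh, a decrease of -1.39 ± 0.071 (log2; 95% CI -1.55 to -1.24; limma adjusted p = 8.44e-09), or 2.63-fold. All 10 P10 libraries, WT and HT, lay above all 20 P120 libraries. Cacng2 was 3264, 3480, 3433, 3225 and 3493 at P10 and 2381, 2825, 3076, 3157 and 3004 at P120, with no overlap and a change of -0.23 ± 0.077 (limma adjusted p = 0.0197). The lowest values among the P120 libraries, 2381 and 2825, came from the pair low in cerebellar markers (P120-WT-Veh 1 and 2). Without them the Cacng2 change was -0.13 and no longer passed (limma adjusted p = 0.0664), and the part of cerebellar content was not tested further. Cacng8, at 1563, 1711, 1574, 1703 and 1541 against 1969, 2163, 1614, 1890 and 1714, overlapped between the ages, with an increase of 0.20 ± 0.081 (limma adjusted p = 0.0473). That call was lost without any 1 of 8 libraries (all but P120-WT-Veh 3 and 5; 0.15 to 0.22 in those fits), and after correction for GC content and length its sign turned (-0.081, limma adjusted p = 0.415). Cacng3 was -0.13 (limma adjusted p = 0.281).

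Both cornichons fell with age in WT. Cnih2 was 7388, 7392, 7186, 7570 and 6428 in P10-WT against 5421, 6154, 5443, 5261 and 4287 in P120-WT-Veh, without overlap (-0.44 ± 0.087, limma adjusted p = 7.35e-04). Cnih3 was 1648, 1621, 1835, 1930 and 1375 against 1339, 1480, 1047, 1189 and 1120, with the lowest P10 library inside the P120 range (-0.45 ± 0.11, limma adjusted p = 0.00355). Groups failed to overlap for 4 of the 10 genes (Gria1, Cacng2, Cacng4 and Cnih2) and for 45.6% of all genes tested.

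To allow for base composition, genes were binned by GC content and length, the average offset of a library in each bin was removed, and the fit was repeated. Gria1 (0.48, limma adjusted p = 1.38e-06), Cacng4 (-1.55, 1.22e-09), Cnih2 (-0.70, 3.16e-06) and Cnih3 (-0.63, 5.77e-04) kept direction and call. Gria3 (0.38, limma adjusted p = 0.0118) and Cacng3 (-0.31, 0.0108) gained a call, and Cacng2 (-0.15, 0.068) lost it. Gria2 came to -0.019 (limma adjusted p = 0.912). Without the 2 libraries low in cerebellar markers, and with no correction, Gria2 was instead -0.84 (limma adjusted p = 0.00232) and Cacng3 -0.27 (0.00585). Without the library labelled P120-WT-Veh 2 alone, Gria2 was -0.57 (limma adjusted p = 0.0633), Cacng3 passed (-0.21, 0.0295), Cacng8 did not (0.15, 0.115), and Gria1, Cacng2, Cacng4, Cnih2 and Cnih3 kept their calls.

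In HT, 4 of the 10 genes passed, 1 higher (Cacng8) and 3 lower (Gria2, Cacng4 and Cnih3), against 51.1% of 17989 genes tested (25.8% higher, 25.3% lower). Cacng4 again fell furthest, from 3673, 3943, 3695, 4078 and 3434 in P10-HT to 1784, 1489, 1418, 1330 and 1292 in P120-HT-Veh (-1.37 ± 0.11, limma adjusted p = 7.89e-07). Cnih3 went from 1856, 1694, 1689, 1700 and 1658 to 1390, 1047, 1127, 1054 and 1064 (-0.60 ± 0.11, limma adjusted p = 4.47e-04). For both genes no library of one age reached the other.

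Gria2 was 20923, 17474, 17470, 17859 and 19154 in P10-HT and 5492, 7175, 8007, 16028 and 15330 in P120-HT-Veh, a change of -0.96 ± 0.26 (limma adjusted p = 0.00729) that shrank to -0.33 (0.00742) after the GC and length correction. The P120 values fell into a low and a high set, and the 3 low ones belong to the libraries with a GC index of 0.59 or more, while the 2 high ones had -0.51 and -0.4. Cacng8 rose by 0.33 ± 0.12 (limma adjusted p = 0.0404), lost its call without any 1 of 7 libraries (all but P120-HT-Veh 2, 4 and 5; 0.25 to 0.35), and turned to -0.13 (0.186) with the correction. Gria1 (0.20), Gria3 (-0.36), Gria4 (-0.30), Cacng2 (-0.20), Cacng3 (-0.23) and Cnih2 (-0.26) did not pass, with limma adjusted p between 0.0806 (Cacng2) and 0.252 (Cnih2). With the correction, Gria1 (0.42, limma adjusted p = 2.66e-04), Cacng3 (-0.50, 5.53e-04) and Cnih2 (-0.72, 3.7e-06) passed, in the direction seen in WT. Groups failed to overlap for Gria2, Cacng4 and Cnih3, 3 of 10, against 40.2% of all genes. Without the library labelled P120-HT-Veh 2, Gria2 (-0.86, limma adjusted p = 0.0225), Cacng4 (-1.38, 6.03e-06), Cacng8 (0.36, 0.0476) and Cnih3 (-0.58, 0.00186) still passed.

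Markers of oligodendrocyte precursors fell with age, as Cacng4 did. Of 8 such markers (Pdgfra, Cspg4, Olig1, Olig2, Sox10, C1ql1, Gpr17 and Lhfpl3), 7 fell and 0 rose with age in WT, and 5 fell in HT. Of all genes tested, 29.4% were lower with age in WT and 25.3% in HT. Their summed level was 26150 to 29742 in P10-WT, 20498 to 26714 in P10-HT, 13269 to 17260 in P120-WT-Veh and 12541 to 18601 in P120-HT-Veh, and none was at 0. Other lists moved in WT as well. Of 8 endothelial and mural markers 6 fell and 1 rose, and of 10 glutamatergic neuron markers 5 fell and 1 rose. Of 10 mature oligodendrocyte markers 6 rose and 0 fell. At P10 the precursor sum had a median of 25029 in HT and 28262 in WT, while the medians of Cacng4 were 3695 and 3836. The part of the precursor markers in the decrease of Cacng4 was not tested.

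Whether the change with age differs between genotypes was tested as an interaction over the same 20 libraries. No gene of 17978 passed (0%), with 612 (3.4%) at an unadjusted p under 0.05, and 0 of the 10 genes passed in limma at either level. The lowest estimate was that of Gria2, -0.49 (95% CI -1.27 to 0.29), and the highest that of Cnih2, 0.19 (95% CI -0.26 to 0.63). The width of these intervals leaves room for sizeable differences, and the smallest limma adjusted p of the 10 genes was 0.877. Without the pair that went against their labels, Gria2 was -0.29 and Cnih2 0.27 (limma adjusted p = 0.92 for both). Without the libraries low in cerebellar markers they were -0.13 and 0.27 (limma adjusted p = 0.986 and 0.982).

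The comparison of P10-HT with P10-WT addresses the effect of losing an Arid1b copy in the young, untreated brain. In limma 4 of 17896 genes passed (0.0224%), among them Arid1b itself (-0.55 ± 0.036, adjusted p = 1.52e-05), and 0 of the 10 receptor genes did. At an unadjusted p under 0.05, 2 of the 10 (Gria2 and Gria3) and 12.6% of all genes were found. Gria2 was higher in all 5 P10-HT libraries (17470 to 20923) than in any P10-WT library (15695 to 16990), a difference of 0.18 ± 0.050 (log2; 95% CI 0.072 to 0.29). Its exact two-sided permutation p was 0.00794, the smallest that 5 against 5 allows, while the limma adjusted p over all genes was 0.292. Groups failed to overlap for 1 of the 10 genes and for 3.12% of all. Gria3 was 0.14 ± 0.061 higher (limma adjusted p = 0.370), with P10-HT at 4455 to 5542 and P10-WT at 4115 to 4833. Cnih2 lay at the other end, with -0.093. The library with the highest Gria2 and Gria3 of all P10 brains, P10-HT 1, also had the lowest GC index, -0.88.

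In vehicle-treated adults the genotypes were compared 4 against 4, with the libraries the study lists for this comparison, which leave out the pair that went against their labels. Neither any of the 10 genes nor any of 17784 genes passed in limma (0%). At an unadjusted p under 0.05 there were 229 genes (1.29%) and 0 of the 10. Gria2 spanned 5492 to 16028 in P120-HT-Veh and 6086 to 18962 in P120-WT-Veh, a difference of -0.11 with a 95% CI from -0.99 to 0.77. Gria4 differed by -0.26 (95% CI -0.85 to 0.32) and Cnih2 by 0.18 (-0.34 to 0.70). The groups overlapped for all 10 genes, and the smallest exact two-sided permutation p among them was 0.229, where 4 against 4 can reach 0.0286. Arid1b differed by -0.49 ± 0.13 (limma adjusted p = 1.0), and by -0.29 (0.991) with all 5 against 5. Since the pair left out is the one whose Arid1b went against its labels, the larger value is no separate check. All 5 against 5 libraries gave 0 genes as well, and without P120-WT-Veh 1, low in cerebellar markers, Gria2 was 0.15 (limma adjusted p = 1.0).

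In fluoxetine-exposed adults the same comparison looked very different. Between P120-HT-Flx and P120-WT-Flx 7 of the 10 genes passed, with Gria2, Gria3 and Gria4 lower in HT and Cacng2, Cacng4, Cacng8 and Cnih2 higher. Among all genes, 63.7% of 17799 genes passed in limma, 33.1% higher and 30.5% lower, so 7 of 10 is near the background. The GC indices of these groups, 0.82 to 1.6 against -0.55 to -0.35, did not overlap. Among the called members, the 3 that were lower have 36.8% to 44.3% GC and the 4 that were higher have 51.2% to 65.1%. Those not called were Gria1 (48.5% GC, 0.075), Cnih3 (53.3%, 0.030) and Cacng3 (54.6%, 0.22). In rising order of GC content, the called members stood at -1.62 (Gria2), -1.28 (Gria3) and -0.81 (Gria4). Then came 0.28 (Cacng2, 51.2%), 0.38 (Cacng4), 0.72 (Cnih2, 62.3%) and 0.43 (Cacng8, 65.1%), so that among them only Cacng8 broke the order. Of those not called, Cnih3 and Cacng3 lay below a member with less GC.

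Gria2 read 4010, 6424, 3758, 8871 and 6044 in P120-HT-Flx and 16485, 20797, 16440, 13842 and 18466 in P120-WT-Flx. Every HT library lay below every WT library, and the difference of -1.62 ± 0.21 (log2; limma adjusted p = 5.36e-05) was 3.08-fold. Gria3 was 1653, 2947, 1681, 4132 and 2549 against 5913, 6512, 5819, 5257 and 6153, again without overlap (-1.28 ± 0.21, or 2.43-fold; limma adjusted p = 2.49e-04). Gria4, the subunit abundant in cerebellum and interneurons, was 1439, 2901, 2210, 3510 and 3918 against 4617, 3588, 5391, 6604 and 3599 (-0.81 ± 0.26, limma adjusted p = 0.014). The groups of Gria4 overlapped through P120-WT-Flx 2 and 5 (3588 and 3599) on one side and P120-HT-Flx 5 (3918) on the other. The first 2 are low in cerebellar markers, and P120-HT-Flx 5 had the highest cerebellar marker sum of all libraries (74150). Without the P120-WT-Flx pair Gria4 was -1.06 (limma adjusted p = 0.0085). The part of cerebellar content was not tested. Gria1, the least GC-poor of the subunits, had all WT libraries inside the HT range, at 11732, 13783, 14005, 13534 and 16477 against 13177, 13871, 13562, 13008 and 12091 (0.075 ± 0.090, limma adjusted p = 0.484).

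Cnih2 was 9422, 7325, 7134, 8792 and 5171 in P120-HT-Flx and 4579, 5423, 3714, 3859 and 5109 in P120-WT-Flx, with 1 HT library inside the WT range (0.72 ± 0.16, limma adjusted p = 0.00163). Cacng8 was 2835, 2288, 2144, 2404 and 1654 against 1597, 1907, 1509, 1475 and 1811 (0.43 ± 0.13, limma adjusted p = 0.012). Cacng4 was 1777, 1739, 2002, 1762 and 1701 against 1440, 1301, 1432, 1178 and 1550, without overlap (0.38 ± 0.090, limma adjusted p = 0.00243). Its higher level in P120-HT-Flx went with that of the oligodendrocyte precursor markers, at 15494 to 20637 in sum against 12514 to 14482, of which 5 of 8 were higher and 2 lower, and 2 and 1 after the GC and length correction. Other marker lists moved too, with 5 higher and 1 lower of 10 for glutamatergic neurons and 5 and 4 of 10 for astrocytes. Of all genes tested, 33.1% were higher and 30.5% lower, and 36.1% passed in either direction after the correction. The precursor markers had a median GC content of 58.85%, against 49.7% for the median gene of the table. The part of the precursor markers was not tested. Cacng2, at 0.28 ± 0.11 (limma adjusted p = 0.0446), lost its call without the P120-WT-Flx pair low in cerebellar markers (0.17, limma adjusted p = 0.266) and without any 1 of 7 libraries (all but P120-HT-Flx 1 and 3 and P120-WT-Flx 4; 0.22 to 0.30). Without that pair Cacng3 gained one (0.40, limma adjusted p = 0.032, against 0.22 and 0.181 with all libraries). Cnih3 (0.030) did not pass (limma adjusted p = 0.890). Groups failed to overlap for Gria2, Gria3 and Cacng4, 3 of 10, against 48.5% of all genes.

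**Figure D3:**
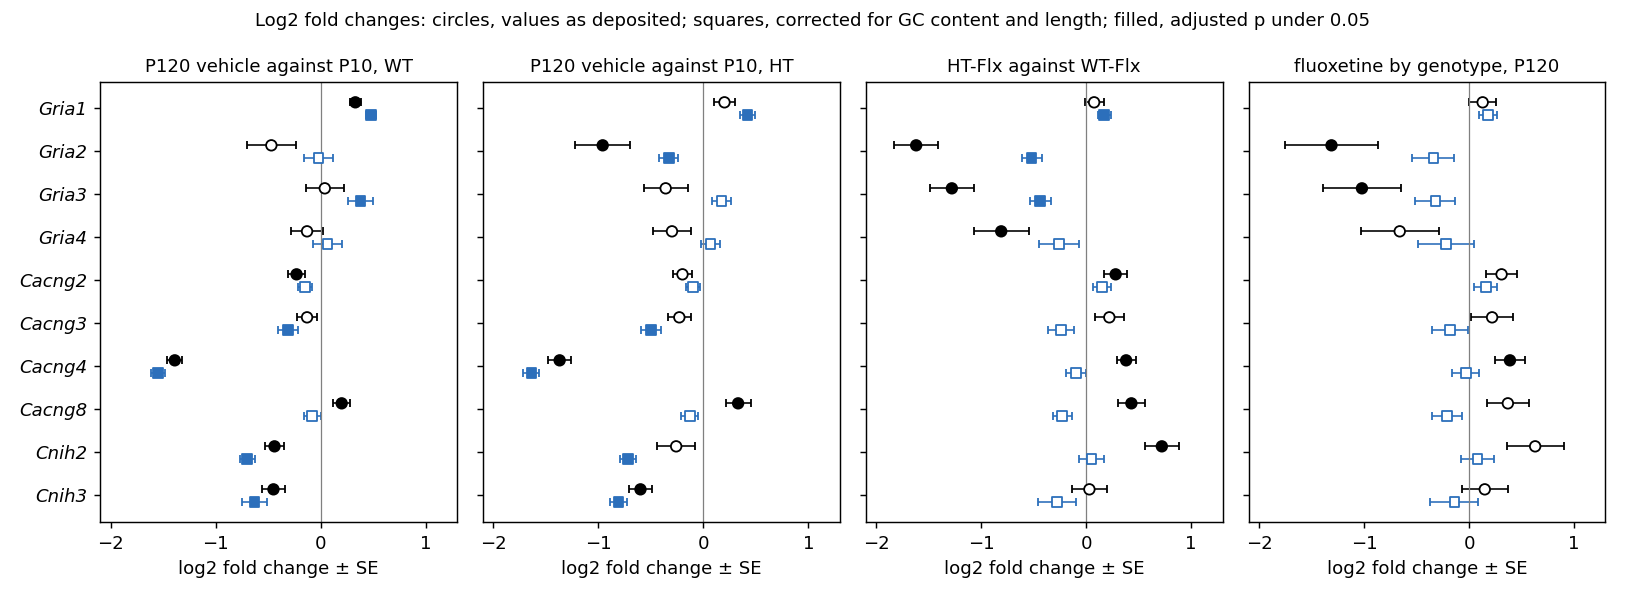
Log2 fold change ± SE of each of the 10 genes with age in WT and in HT, between genotypes with fluoxetine and for fluoxetine by genotype; circles are values as deposited, squares values corrected for base composition and length, and filled symbols have an adjusted p under 0.05. For HT against WT with fluoxetine, Gria2 moves from -1.62 to -0.52 and Cnih2 from 0.72 to 0.051 with the correction, while Cacng4 with age in WT stays near -1.39 (-1.55).

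Correction for GC content and length left 3 of the 10 genes past the threshold in this comparison: Gria2 (-0.52, limma adjusted p = 0.00161), Gria3 (-0.44, 0.00691) and, newly, Gria1 (0.17, 0.0464). Gria4 (-0.26, limma adjusted p = 0.308) and Cacng2 (0.15, 0.213) kept their sign without a call, and Cnih2 came to 0.051 (0.77). Cacng4 turned to -0.10 (limma adjusted p = 0.419) and Cacng8 to -0.23 (0.0582), so that none of the 4 auxiliary genes was called higher. Among all genes, 6419 (36.1%) passed after the correction. Arid1b, whose direction is known from the mutation, was lower in HT before (-0.41 ± 0.082, limma adjusted p = 8.01e-04) and after (-0.67, 6.51e-05), and was -0.55 between the P10 genotypes. Since its direction was the same with and without the correction, it cannot tell which values are nearer the truth.

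Across the adult libraries, low Gria2 went with a high GC index. The 9 P120 libraries with the highest GC index were the same 9 that had the lowest Gria2 values, all at 8871 or below. At other cut-offs the shared libraries were 3 of 5, 5 of 6, 6 of 7, 7 of 8, 9 of 10, 10 of 11 and 10 of 12. The 9 comprised all 5 P120-HT-Flx libraries, 3 of P120-HT-Veh and 1 of P120-WT-Veh. The GC index and the genotype cannot be told apart within the fluoxetine groups.

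**Figure D4:**
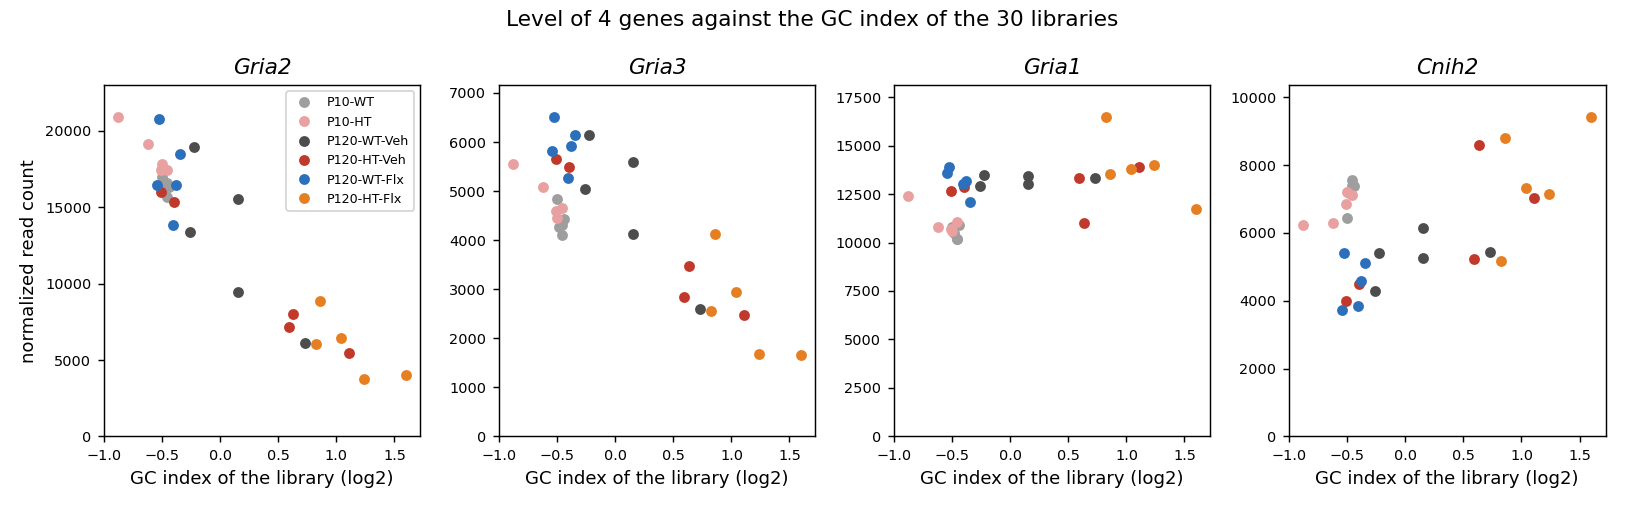
Normalised read count of Gria2, Gria3, Gria1 and Cnih2 (1 panel each, vertical axis from 0) against the GC index (horizontal axis, log2 units) in the 30 libraries, coloured by group. The 5 P120-HT-Flx libraries sit at an index of 0.82 or more with Gria2 at 8871 or less, and P10 and P120-WT-Flx libraries sit at -0.35 or less with 13842 or more.

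The effect of early fluoxetine was then compared within each genotype. These comparisons share their fluoxetine and vehicle libraries with those above, so the values are given side by side and not as separate support. In HT, 0 of 17676 genes passed in limma (0%), with 4082 (23.1%) at an unadjusted p under 0.05 and 3 of the 10 among them (Gria2, Gria3 and Cacng4). Gria2 was -0.78 ± 0.31 (95% CI -1.46 to -0.10, limma adjusted p = 0.215), with P120-HT-Flx at 3758 to 8871 and P120-HT-Veh at 5492 to 16028. Gria3 was -0.63 and Cacng4 0.30 (limma adjusted p = 0.215 for both), Gria4 -0.52 (0.230) and Cnih2 0.40 (0.241). All 10 genes overlapped between the groups. Without the library labelled P120-HT-Veh 2, Gria2 was -0.88 (limma adjusted p = 0.264).

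In WT the estimates pointed the other way for the subunits. Again 0 of 17865 genes passed in limma (0%), with 4504 (25.2%) and 0 of the 10 at an unadjusted p under 0.05. Gria2 was 0.53 ± 0.25 (95% CI -0.012 to 1.08, limma adjusted p = 0.206), Gria3 0.39 (0.211), Gria4 0.14 and Cnih2 -0.23 (0.235). The count of 0 over all genes rested on single libraries, with 1400 genes passing without P120-WT-Veh 1 and 624 without P120-WT-Veh 5, while 0 of the 10 receptor genes passed in either. Without the library labelled P120-WT-Veh 2, Gria2 was 0.63 (limma adjusted p = 0.218). After the GC and length correction Gria2 was 0.18 in WT and -0.16 in HT.

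The difference between the responses in HT and WT was tested as an interaction over the 20 P120 libraries. It passed for 3 of the 10 genes, Gria2 (-1.31 ± 0.44, limma adjusted p = 0.0379), Gria3 (-1.02, 0.0485) and Cacng4 (0.39, 0.0459), against 27.3% of 17796 genes tested, 15.8% higher and 11.5% lower. Gria4 (-0.66, limma adjusted p = 0.168) and Cnih2 (0.63, 0.0739) did not pass. None of the 3 calls held after the GC and length correction, where Gria2 was -0.34 (limma adjusted p = 0.314), Gria3 -0.32 (0.321) and Cacng4 -0.031 (0.908), and 0 genes of the table passed. Without the pair of libraries that went against their labels, 0 genes passed as well, with Gria2 at -1.51 (limma adjusted p = 0.0576), and the same held without the 4 libraries low in cerebellar markers (Gria2 -1.54, 0.0981). Leaving out any 1 of 10 libraries (P120-HT-Flx 1 or 3, P120-WT-Flx 1, 2 or 3, P120-HT-Veh 4 or 5, P120-WT-Veh 2, 3 or 4) also left 0 of the 10 genes called.

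Other genes of the receptor's pathway were taken from lists made by function. Their counts are to be read against the shares of all genes called: 58.3% with age in WT, 51.1% with age in HT, and 63.7% between the fluoxetine groups (36.1% after the GC and length correction). Of 18 further auxiliary and assembly proteins, 9 rose and 4 fell with age in WT. The largest rises were those of Abhd12 (1.00, limma adjusted p = 1.84e-07), a lipase found in receptor complexes, and Cpt1c (0.52, 3.18e-05), a regulator of Gria1 export. Cacng5 (-0.59, limma adjusted p = 6.1e-05), a type II TARP, and Shisa8 (-0.52, 0.0206) fell most. In HT 9 rose and 3 fell, led by Abhd12 (1.17) and Syndig1 (0.69) and by Cacng5 (-0.47) and Shisa9 (-0.45). Between the fluoxetine groups 10 were higher in HT and 3 lower, and after the GC and length correction 6 and 2. Frrs1l, an assembly factor in the endoplasmic reticulum, turned from -0.33 (limma adjusted p = 0.0389) to 0.58 (4.45e-04) with that correction, Olfm3 from -0.91 (0.00118) to 0.061 (0.772), and Shisa8 went from 1.02 (9.87e-04) to 0.27 (0.318). Olfm2 stayed past the threshold, at 0.85 before and 0.31 after (limma adjusted p = 0.0146).

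Of 21 genes for anchoring and trafficking, 12 rose and 4 fell with age in WT, and 7 rose and 4 fell in HT. Arc, which drives receptor endocytosis, rose by 2.72 in WT (limma adjusted p = 1.26e-07) and 2.69 in HT, and Nptx1, a secreted pentraxin that clusters receptors, by 1.77 (1.51e-08) and 1.95. Grip1, a PDZ scaffold for the tails of Gria2 and Gria3 products, was -1.49 in WT (limma adjusted p = 6.99e-08) and -1.54 in HT. Akap5, the anchor of protein kinase A, was -0.74 in WT (limma adjusted p = 0.00869) and -0.95 in HT, and its change in WT did not pass after the correction (-0.32, 0.102). Between the fluoxetine groups 12 were higher in HT and 6 lower, which fell to 2 and 4 after the correction. Dlg4, encoding the scaffold PSD-95, was 0.94 higher (limma adjusted p = 1.03e-04) and 1.25 after correction (3.04e-04), whereas Grip2 (0.86), Akap5 (-1.06) and Dlg1 (-0.94) came to 0.10, -0.14 and -0.10.

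The 3 adenosine deaminase genes of the editing family all passed in both age comparisons. Adarb1, whose product edits the Q/R codon of Gria2, rose by 0.55 in WT (limma adjusted p = 5.88e-06) and 0.57 in HT, and Adar by 0.58 (5.73e-05) and 0.62. Adarb2, which has no known editing activity, was -0.38 in WT (limma adjusted p = 0.0115) and -0.77 in HT, and its WT value did not pass after the correction (-0.18, 0.109). Between the fluoxetine groups Adar was 0.65 higher in HT (limma adjusted p = 3.23e-05) and 0.29 (0.00194) with the correction, Adarb2 -0.79 (1.62e-04) and -0.32 (0.0144), and Adarb1 0.26 (0.012) and 0.0036 (0.968).

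The 2 other ionotropic glutamate receptor families served as a comparison. All 7 NMDA receptor subunit genes changed with age in WT, 4 up and 3 down, with or without the correction. Grin2c (1.55, limma adjusted p = 6.55e-06) and Grin3b (1.00, 5.3e-04) rose most, while Grin3a (-1.40, 7.17e-09) and Grin2d (-0.92, 1.27e-06), both known from the immature brain, fell most. In HT 3 rose and 3 fell, with Grin2c at 1.54, Grin3b at 1.49, Grin3a at -1.55 and Grin2b at -1.12. Between the fluoxetine groups 4 were higher (Grin3b 1.14, Grin2c 1.08) and 2 lower (Grin2a -0.62, Grin2b -0.51), and 0 passed after the correction. Of 7 kainate and delta receptor genes, 1 rose (Grik4, 0.30, limma adjusted p = 0.00274) and 3 fell with age in WT, led by Grik1 (-1.40, 4.75e-08) and Grik2 (-0.61, 0.0015, which did not pass after correction at -0.16). In HT 1 rose (Grik4, 0.36) and 2 fell (Grik1 -1.59, Grik2 -0.98). Between the fluoxetine groups 3 were higher (Grik5 0.82, Grik4 0.60) and 2 lower (Grik2 -1.12, Grik1 -0.44), which came to 1 and 0 after correction. In the 5 comparisons in which none of the 10 receptor genes passed, none of the 56 genes of these lists passed either. In the fluoxetine-by-genotype interaction 18 of the 56 genes were higher and 5 lower, against 15.8% and 11.5% of all genes. After the correction 0 of the 56 passed, and 0 genes of the whole table. Leaving out a single library also brought the whole-table count to 0 in several fits. These left out P120-HT-Flx 1, P120-WT-Flx 2 or 3, P120-HT-Veh 4 or 5, or P120-WT-Veh 2, 3 or 4. The other fits of that kind gave 2291 to 7667 genes.

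The genes whose log2 values followed each subunit most closely were taken from 13196 genes with a mean of at least 100. These correlations are descriptions, since the libraries share groups and the base-composition split. Over the 30 libraries Gria2 went with Alcam and Flrt2 (Pearson r = 0.99 for both), which encode cell adhesion proteins, Gria3 with Slmap and Slc4a10 (0.98), Gria4 with Atl2 and Mindy2 (0.97) and Gria1 with Ntrk2 (0.92), the BDNF receptor gene, and Otud7b (0.91). Over the 20 P120 libraries Gria2 went with Cdc40 and Flrt2 (0.99), Gria3 with Cacna2d1 (0.99), Gria4 with Mindy2 and Atl2 (0.98) and Gria1 with Glg1 (0.85) and Arhgap35 (0.84). The partners of Gria2, Gria3 and Gria4 had transcripts of 40.7% to 46.1% GC, below the median gene, and those of Gria1 48.5% to 50.6%.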

How the data were processed

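RNA was measured by poly(A)-selected, paired-end RNA-seq of whole brains from 30 male mice, 5 per group, and groups were taken from the labels. The authors quantified transcripts with Salmon 1.1.0 against GRCm38 with GC-bias correction and normalised gene counts with DESeq2 1.30.1, per the study's methods and the submitters' processing notes. These sources name different R versions. The deposited values are these normalised counts, a signal that is not whole, from which reads could not be recovered, so depth and counting error are unknown.

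Genes with a mean of at least 10 over the libraries of a comparison were tested on log2(value + 1) with limma 3.58.1 (R 4.3.3, intensity trend), with Benjamini-Hochberg adjustment over all genes tested and a threshold of 0.05. Fold changes on this scale understate those of low genes. Single genes also had exact two-sided permutation tests (scipy 1.17.1). The deposited values replaced the raw counts that the authors tested. There were 9 comparisons, and vehicle-treated genotypes were compared with the 4 libraries per group that the study lists for this comparison, although its legends give 5 mice per group. Labels number 5 libraries per group, taken here as 5 mice. The p-values measure the spread between these libraries, which at P120 also holds their differences in GC index and cerebellar markers. Fluoxetine or vehicle was given to dams, and the labels do not name litters. Mice of 1 litter therefore could not be told apart from independent mice, and the fits treat all as independent. Each fit was tested on simulated data first.

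Named genes were the 10 members, Arid1b, the 2 largest rises and falls past the threshold in each pathway list, and the 2 genes most correlated with each subunit; 1 gene that this rule names is not reported here. The members and lists were chosen with earlier results of these data known. GC content and length came from GRCm38 GENCODE transcripts and were known for 99.9% of genes. The correction removed a library's average offset in each cell of 10 GC classes by 10 length classes. All genes of a cell get the same offset, which can be too small or too large for a gene at its edge. Alternatives were other pseudocounts and filters, another scaling, no trend, all groups in one fit, a replicate block, and leaving out libraries. Leaving out the 4 libraries low in cerebellar markers was chosen after seeing the data.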

Additional observations from a re-analysis of the deposited data

Results flagged for a closer look

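Among 60 sets of 5 libraries (10 genes in 6 groups), 5 held a library whose gap to its nearest neighbour took more than 0.71 of the range, where chance gives about 1 in 20. The library P10-HT 1 stood above its group in Gria1 (12391, next 11081) and in Cnih3 (1856, next 1700). It also had the highest Gria2 of the P10 libraries and the lowest GC index, -0.88. Cacng4 was 1661 in the library labelled P120-WT-Veh 2 (next 1445), the library whose Arid1b value went against its label. Cacng4 was 2002 in P120-HT-Flx 3 (next 1777), and Cnih3 was 1390 in P120-HT-Veh 1 (next 1127).

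The response to fluoxetine differed between genotypes by the interaction test in Gria2 (-1.31), Gria3 (-1.02) and Cacng4 (0.39). None of these differences passed after correction for GC content and length, and the part of the GC index in them cannot be told apart from the groups, since all P120-HT-Flx libraries had an index of 0.82 or more and all P120-WT-Flx libraries one of -0.35 or less.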

How the results depend on the processing

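For age in WT, 6 of the 10 genes became 5 with no trend and with all groups in one fit, both without Cacng8. For age in HT, 4 became 3 with no trend or the block, 5 with all groups in one fit and 6 with the GC and length correction. With fluoxetine, 7 genes between the genotypes became 3 after the GC and length correction, and 2 with the replicate block added. The whole table went from 11330 to 6419 and 5249. For fluoxetine in HT, 0 became 2 with a replicate block (Gria2, limma adjusted p = 0.0337, and Gria4, 0.033) and 4 with all groups in one fit (all genes: 0 to 1355 and 5948). For fluoxetine by genotype, 3 became 1 with no filter and 1 with no trend, and 0 with the GC and length correction (with or without the block), without P120-HT-Veh 2 and P120-WT-Veh 2, and without the libraries low in cerebellar markers. The whole table there went from 4852 to 0 under the last 3, and to 7637 with all groups in one fit. At P10, 4 genes of the table became 7 with the block, 8 with block and correction and 0 with all groups in one fit.

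Among the fold changes printed in the text, signs turned, with the same value with or without a replicate block, under the GC and length correction. With age in WT these were Gria4 (0.065) and Cacng8 (-0.081), and in HT Gria3 (0.17), Gria4 (0.069) and Cacng8 (-0.13). They also included Cnih2 for age by genotype (-0.0063), Cacng3 (-0.24), Cacng4 (-0.10), Cacng8 (-0.23) and Cnih3 (-0.28) between genotypes with fluoxetine, Cnih2 for fluoxetine in WT (0.0078), and Cacng4 for fluoxetine by genotype (-0.031). Without the libraries low in cerebellar markers Gria3 (-0.21) and Gria4 (0.14) with age in WT, and Gria2 between vehicle genotypes (0.15), turned, as did Gria3 with age in WT without P120-WT-Veh 2 (-0.038). The causes were not tested.

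Leaving out 1 library at a time gave 5 to 6 genes for age in WT, 3 to 6 for age in HT, 6 to 7 between genotypes with fluoxetine, 0 to 4 for fluoxetine by genotype and 0 in the others. Calls were gained for Gria2 with age in WT without P120-WT-Veh 1 (-0.65, limma adjusted p = 0.0172). In HT they were gained without P120-HT-Veh 1 for Cacng3 (-0.29, 0.0352), without 3 for Gria1 (0.25, 0.0298) and Cnih2 (-0.41, 0.0367), and without 4 for Gria3 (-0.51, 0.0351) and Gria4 (-0.41, 0.0498). Cnih2 gained one for fluoxetine by genotype without P120-HT-Flx 5 (0.76), P120-HT-Veh 1 (0.71) or 3 (0.78). Ranges that crossed 0 were those of Gria3 with age in WT (-0.072 to 0.24), Gria2 (-0.39 to 0.19) and Cnih2 (-0.018 to 0.35) between vehicle genotypes and Cnih3 between fluoxetine genotypes (-0.067 to 0.17).

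Replicate numbers did not pair the mice: correlations of same-numbered libraries ran from -0.284 to 0.399, and no comparison had every library closest to its own number. The mean was highest for fluoxetine in HT (0.168, against -0.0416 for other pairs, with 3 of 5 closest to their own number), a hint from the data and not from the design, and the block also took the calls of Cacng8 with age in HT (limma adjusted p = 0.078) and Cacng2 between fluoxetine genotypes (0.0709). Depth is unknown. In simulated data with 200 genes moved up or down by 1 log2, 83% were recovered for age in WT but 31.5% between vehicle genotypes. The simulated spread was drawn for each gene on its own, without the base-composition and cerebellar differences that the real libraries share. These rates therefore need not hold for the real fits.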
